A study of Mus musculus with 6 samples.

Results

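The genes described here encode the proteins of the mitochondrial ribosome. They were chosen by name as the protein-coding genes whose mouse symbol starts with Mrpl or Mrps and a digit in GENCODE M21 (GRCm38), which gave 78 genes of the 55401 in the count tables, 49 with an Mrpl and 29 with an Mrps symbol. RNA was sequenced from mouse splenic CD4+ T cells, isolated as naive cells by magnetic enrichment and then stimulated for 24 h by way of CD3 and CD28. Cells of mice with loxP-flanked Satb1 alleles (Satb1 flox/flox) and a Cre recombinase under CD4 regulatory sequences (CD4-Cre), called Satb1 cKO below, gave 3 libraries, and cells of control mice, labelled WT, gave 3. CD4-Cre acts in the T lineage from the thymus onwards, so the deletion precedes activation. The labels give neither the age of the mice nor whether controls carried floxed alleles or Cre, so Cre and deletion effects cannot be told apart. Separate mice are not stated as the source of the 3 libraries in a group: the p-values reflect library-to-library spread, possibly technical.

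The mitochondrial ribosome translates the few respiratory chain proteins that mitochondrial DNA encodes. Its rRNAs are transcribed inside the organelle, but its proteins are all encoded in the nucleus, made in the cytosol and imported. Relative to bacterial ribosomes it has less RNA and more protein: members with low numbers are named after a bacterial ribosomal protein, and most of those with higher numbers have no bacterial counterpart. T cells build up mitochondrial mass and mitochondrial translation in the first day after stimulation, when they leave quiescence and prepare to divide.

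Satb1, the targeted gene, had 426, 546 and 462 CPM in the Satb1 cKO libraries, against 712, 851 and 727 CPM in the control libraries (CPM, read counts scaled by library size after TMM normalization). The groups did not overlap (log2 fold change -0.68, SE 0.0866, adjusted p = 9.7e-05, edgeR's quasi-likelihood test, adjusted by Benjamini-Hochberg over 13364 genes). Counts over the whole gene can include exons that Cre leaves in place. Satb1 cKO libraries held 16621609 to 19023023 reads on genes, and control libraries 14895389 to 20266626. A list of 9 T cell markers (Cd3d, Cd3e, Cd3g, Cd4, Cd5, Cd28, Trac, Lck and Zap70) summed to 2652 to 2742 CPM in Satb1 cKO and 3400 to 3578 CPM in control. In that list 1 gene rose and 5 fell, among them Cd4, at 209 ± 4.06 CPM in Satb1 cKO and 701 ± 19.96 CPM in control (SD, n = 3 each). Markers of some other cells also differed. The 11 red cell markers with a line in the tables, of which all 8 tested rose, summed to 317 to 1875 CPM in Satb1 cKO, lowest in replicate 1, against 27.5 to 33.6 CPM in control, and 14 myeloid markers, of which 12 of 13 tested rose, summed to 182 to 324 CPM in Satb1 cKO, against 106 to 127 CPM in control. Of the tested markers, 2 of 8 for B cells, 2 of 3 for NK cells and 1 of 2 for CD8 T cells rose, and 0 in these 5 lists fell (0 also at an unadjusted p under 0.05, and by DESeq2 and limma voom). The B cell list summed to 248.5 to 310.4 CPM in Satb1 cKO and 231.4 to 296.4 CPM in control, with overlap. The summed levels of the NK and CD8 T cell lists did not overlap between the groups. Among all genes tested, 21.6% were called higher and 20.7% lower. In bulk RNA, fewer cells of a type and less RNA per cell cannot be told apart. None of the 11 red cell and 14 myeloid markers was at 0 in all libraries. The part of other cells in the differences below was not tested.

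Mitochondrial ribosomal protein transcripts differed little between the groups, and where they did, most were slightly higher in Satb1 cKO. Of 78 members, 77 had enough reads to be tested, and 19 rose (24.7%) while 3 fell (3.9%) at an adjusted p under 0.05. Over all 13364 genes tested, 21.6% were called higher and 20.7% lower. The share of members that rose was thus near the background, and the share that fell was below it, a difference that was not tested. Without control replicate 3, 8 members were called higher, and without Satb1 cKO replicate 1, 1 was called lower. Members had a median log2 fold change of 0.11 (range -0.21 to 0.43), against 0.0034 over all genes, and 58 of the 77 members (75.3%) had a positive fold change, against 50.4% of all genes. None reached a 2-fold difference, and 74 of 77 lay within 0.3 of zero on the log2 scale. Against a fold change of 1.2, edgeR's glmTreat called 0 members in either direction (1 higher and 0 lower at an unadjusted p under 0.05), while it called 9.14% of all genes higher and 8.39% lower. The standard deviation of log2 fold changes was 0.132 among members, 0.139 among 78 tested cytosolic ribosomal protein genes and 0.711 among all genes.

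**Figure D1:**
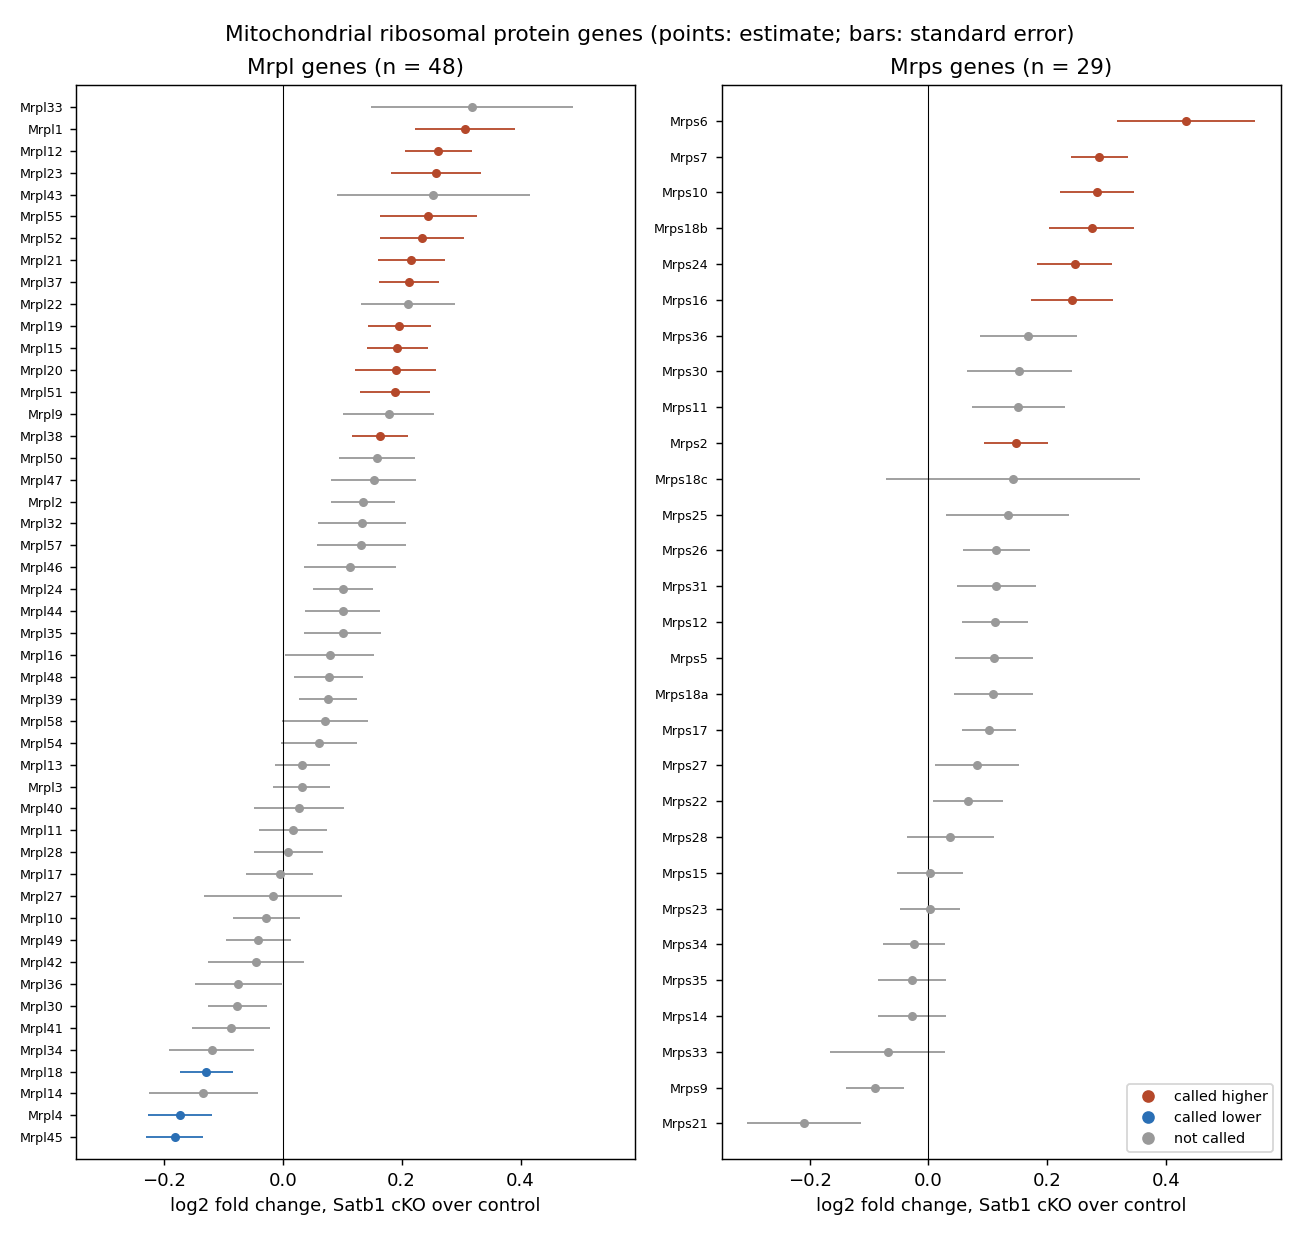
Log2 fold change of each tested member, Satb1 cKO over control, for 48 Mrpl genes (left) and 29 Mrps genes (right), ordered by size; points are estimates from 3 libraries a group and bars their standard errors. Most points lie right of zero, from -0.21 for Mrps21 to 0.43 for Mrps6.

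The remaining member, Mrpl53 (chromosome 6, 83109040 to 83109939), had 0 reads in every library. Other annotated genes cover 88% of its exon bases, and reads that overlap several genes are left out by HTSeq's usual mode. Whether this accounts for the 0 reads was not tested, so the level of Mrpl53 cannot be read from these counts. Mrps34, with 77.8% of its exon bases in other genes, had 1082 to 1346 reads per library. The tested members ranged from 2.3 CPM (Mrps18c) to 145 CPM (Mrpl12), with a median of 43.6 CPM against 23.1 CPM over all genes tested. Their replicates were close, with a median coefficient of variation of 5.2% in Satb1 cKO and 4.68% in control (all genes: 6.47% and 6.94%).

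Summed over all members, the level was 3789, 3661 and 3636 CPM in the Satb1 cKO libraries, against 3538, 3494 and 3407 CPM in the control libraries. All 3 Satb1 cKO libraries lay above all 3 control libraries, with a ratio of means of 1.06. This is 0.368 ± 0.0094% of the reads on genes in Satb1 cKO and 0.348 ± 0.0074% in control (SD, n = 3 each). The 51 large subunit genes summed to 2599, 2484 and 2473 CPM in Satb1 cKO, against 2416, 2398 and 2322 CPM in control. The 26 small subunit genes summed to 1170, 1159 and 1143 CPM in Satb1 cKO, against 1104, 1079 and 1067 CPM in control. Both subunits were higher in Satb1 cKO by about the same factor, 1.06 and 1.07, and in neither did the groups overlap. Of all 6 libraries, Satb1 cKO replicate 1 held the highest level for 37 of the 77 members, and control replicate 3 the lowest for 34.

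**Figure D2:**
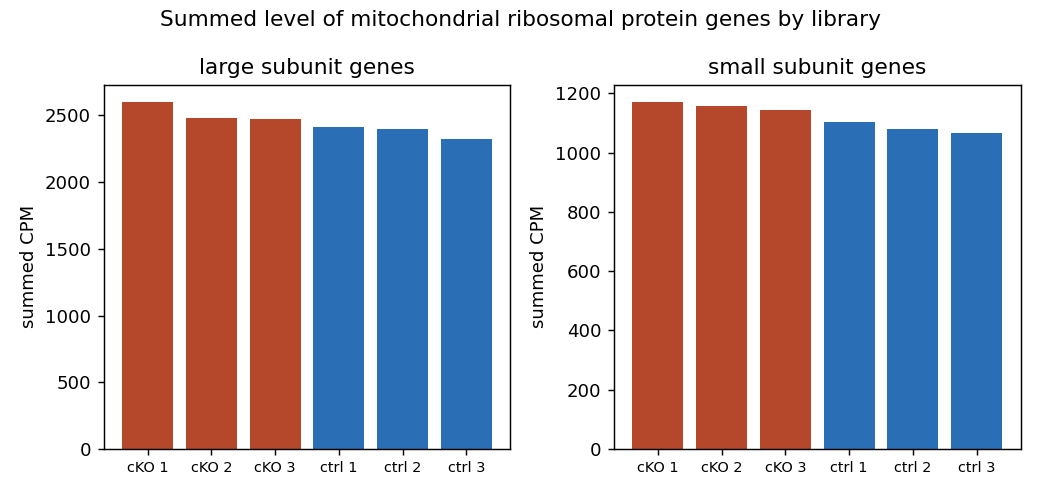
Summed level (CPM) of the 51 large subunit (left) and 26 small subunit genes (right) in each library; bars are single libraries and start at 0. Every Satb1 cKO bar is above every control bar, by a few percent.

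Among the large subunit genes, 12 of 50 tested rose and 3 fell (median log2 fold change 0.1). The most abundant member per exon length was Mrpl12 (ENSMUSG00000039640.7, chromosome 11, 120484613 to 120489065), which encodes the stalk protein that recruits translation factors to the ribosome. It averaged 103 CPM per kilobase in Satb1 cKO and 86.1 in control, ahead of Mrpl2 (58.4 in Satb1 cKO and 53.2 in control) and Mrpl34 (52.4 in Satb1 cKO and 57.1 in control). Mrpl12 had 172, 151 and 151 CPM in the Satb1 cKO libraries, against 132, 136 and 127 CPM in the control libraries. Replicate 1 of Satb1 cKO was highest, and the groups did not overlap (log2 fold change 0.26, SE 0.0563, adjusted p = 0.00313). Mrpl2, whose protein lies close to the peptidyl transferase centre, and Mrpl34 did not pass the test (0.14, SE 0.054, and -0.12, SE 0.0717). Mrpl2 had 72.4, 65.1 and 67.5 CPM in Satb1 cKO, against 62.4, 60.2 and 64.0 CPM in control, and its groups did not overlap. Mrpl34 had 31.3, 34.1 and 30.1 CPM in Satb1 cKO, against 32.2, 36.3 and 35.4 CPM in control, with overlap.

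Mrpl1, encoding the protein of the L1 stalk that handles departing tRNAs, had 42.4, 47.3 and 40.4 CPM in Satb1 cKO, against 37.5, 36.7 and 30.8 CPM in control. It showed the largest rise of the large subunit genes that passed the test (log2 fold change 0.31, SE 0.0842, adjusted p = 0.0122), with control replicate 3 the lowest library, and lost its call without control replicate 3 (0.22) or Satb1 cKO replicate 2 (0.24). Mrpl23, encoding a protein at the exit of the peptide tunnel, had 40.7, 47.9 and 49.1 CPM in Satb1 cKO, against 37.8, 40.4 and 36.8 CPM in control. Its lowest Satb1 cKO library stood just above its highest control library (log2 fold change 0.26, SE 0.0759, adjusted p = 0.0175), and its call was lost without Satb1 cKO replicate 2 (0.22), Satb1 cKO replicate 3 (0.2) or control replicate 3 (0.23). Mrpl37 (chromosome 4, 107055874 to 107066868), whose product has no bacterial counterpart, had 87.3, 80.7 and 86.2 CPM in Satb1 cKO, against 75.1, 69.9 and 74.2 CPM in control. It rose by 15.9% (log2 fold change 0.21, SE 0.0505, adjusted p = 0.00563), and the groups did not overlap. Mrpl55 had 24.9, 21.1 and 23.1 CPM in Satb1 cKO, against 19.6, 19.3 and 19.4 CPM in control. Its groups did not overlap (0.25, SE 0.0812), but the call was lost in 7 of 15 alternative fits. Mrpl21 (0.22, SE 0.0561), Mrpl52 (0.23, SE 0.0703) and Mrpl19 (0.2, SE 0.0529) also rose. Of these, Mrpl21 kept its call in all 15 alternative fits, while Mrpl52 and Mrpl19 lost it in at least 1, and other annotated genes, Gcfc2 on the opposite strand among them, cover 36% of the exon bases of Mrpl19. The remaining large subunit genes that rose were Mrpl15, Mrpl20, Mrpl51 and Mrpl38, with log2 fold changes from 0.16 to 0.19, and each lost its call in at least 1 alternative fit. Mrpl33 and Mrpl43 had estimates of similar size (0.32 and 0.25) at under 7 CPM and did not pass the test.

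The 3 members that fell all belong to the large subunit. The lowest estimate of all members, however, was that of a small subunit gene, Mrps21, which did not pass the test (-0.21, SE 0.0961). Mrpl45 (ENSMUSG00000018882.12, chromosome 11, 97315716 to 97329920), whose protein sits at the tunnel exit and holds the ribosome to the inner membrane, had 83.9, 81.3 and 80.5 CPM in Satb1 cKO, against 97.8, 90.6 and 90.0 CPM in control. Every Satb1 cKO library was below every control library, and the level fell by 11.8% (log2 fold change -0.18, SE 0.048, adjusted p = 0.0101). Mrpl4, whose protein lines the peptide tunnel, had 57.6, 64.7 and 62.5 CPM in Satb1 cKO, against 69.9, 69.6 and 68.7 CPM in control. The control libraries were nearly equal and lay above all Satb1 cKO libraries (-0.17, SE 0.0533, adjusted p = 0.0221). Mrpl18, encoding a protein of the central protuberance, had 73.5, 73.4 and 72.1 CPM in Satb1 cKO, against 77.7, 79.7 and 82.1 CPM in control (-0.13, SE 0.0447, adjusted p = 0.0377). Mrpl18 lost its call in 8 of 15 alternative fits and Mrpl4 without Satb1 cKO replicate 1 (-0.13), while Mrpl45 kept it in all 15.

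Among the small subunit genes, 7 of 26 tested rose (26.9%) and 0 fell (0 also at an unadjusted p under 0.05, and by DESeq2 and limma voom). The shares over all genes tested were 21.6% and 20.7%, so the share that rose was near the background. The difference in falls was not tested. Mrps7 (ENSMUSG00000046756.10, chromosome 11, 115603925 to 115608036), which encodes a protein of the subunit's head, whose bacterial relative starts the assembly of the head, had the smallest p of all members. It had 87.8, 86.9 and 87.9 CPM in Satb1 cKO, against 74.1, 73.1 and 67.9 CPM in control. The Satb1 cKO libraries were nearly equal and lay above all controls (log2 fold change 0.29, SE 0.0478, adjusted p = 0.000607). Mrps6 (chromosome 16, 92058270 to 92112227) had the largest rise of all members, with 13.0, 15.6 and 13.5 CPM in Satb1 cKO, against 11.6, 9.94 and 9.46 CPM in control. Its log2 fold change was 0.43 (SE 0.116, adjusted p = 0.0108) and it lost its call without Satb1 cKO replicate 2 (0.35). Other annotated genes cover 19.9% of its exon bases; the shares were 11.9% for Mrps7, 30.5% for Mrps18b, 13.1% for Mrpl12 and 15.4% for Mrps24, so their levels carry that uncertainty. Mrps10, encoding another protein of the head, had 46.0, 41.9 and 42.1 CPM in Satb1 cKO, against 37.3, 34.98 and 34.4 CPM in control, with no overlap (0.28, SE 0.0624, adjusted p = 0.00356). Mrps24, whose protein lies at the mRNA entry, had 43.6, 48.8 and 49.4 CPM in Satb1 cKO, against 38.9, 39.7 and 41.0 CPM in control (0.25, SE 0.0627, adjusted p = 0.00832). Mrps16 had 35.45, 35.02 and 33.2 CPM in Satb1 cKO, against 28.5, 31.7 and 27.6 CPM in control, without overlap (0.24, SE 0.0691). It lost its call without Satb1 cKO replicate 2 (0.23) or control replicate 3 (0.2). Mrps2 also rose (0.15, SE 0.0538) and lost its call in at least 1 alternative fit.

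**Figure D3:**
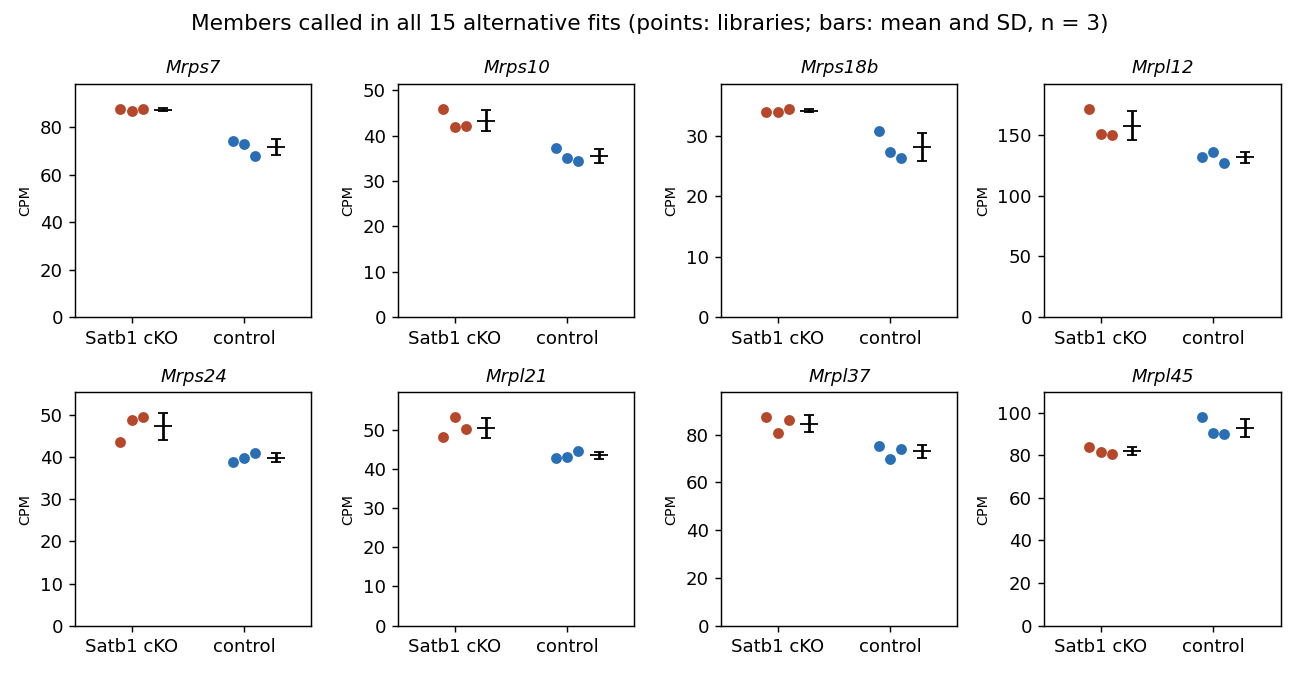
Level (CPM, axes from 0) of the 8 members whose call held in all 15 alternative fits; points are libraries, bars mean and SD (n = 3 each), Satb1 cKO left of control. For 7 members the Satb1 cKO points lie above the control points, and for Mrpl45 below them.

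Mammals have a family of genes related to bacterial S18. Mrps18b rose, with 34.0, 34.0 and 34.5 CPM in Satb1 cKO, against 30.9, 27.3 and 26.4 CPM in control (log2 fold change 0.27, SE 0.0709, adjusted p = 0.00894). Mrps18c, at 2.73, 2.06 and 2.48 CPM in Satb1 cKO, against 2.46, 2.01 and 2.07 CPM in control, had overlapping groups and did not pass the test (0.14, SE 0.213). Mrps18a encodes a large subunit protein despite its symbol and did not pass the test either: it had 43.5, 40.2 and 38.0 CPM in Satb1 cKO, against 39.4, 37.3 and 36.04 CPM in control (0.11, SE 0.0662). Mrps30, another large subunit protein with a small subunit symbol, had 32.5, 28.4 and 25.8 CPM in Satb1 cKO, against 27.1, 24.5 and 26.4 CPM in control (0.15, SE 0.0879). Mrps36, whose product belongs to the 2-oxoglutarate dehydrogenase complex and is counted with neither subunit here, had 20.5, 18.3 and 20.5 CPM in Satb1 cKO, against 18.2, 17.4 and 17.2 CPM in control. Its groups just failed to overlap, and it did not pass the test (0.17, SE 0.0819, adjusted p = 0.123).

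Members named after bacterial proteins and those with higher numbers had similar medians (log2 fold change 0.11 and 0.1). In the first class 13 of 44 rose (29.55%) and 2 fell (4.5%). In the second, 6 of 33 tested rose (18.2%) and 1 fell (3.03%). The shares over all genes tested were 21.6% and 20.7%. Neither the difference between the classes nor that from all genes was tested. The 3 members nearest to no change were Mrps23, with 75.0, 70.9 and 68.3 CPM in Satb1 cKO, against 71.1, 72.9 and 70.1 CPM in control, Mrps15 and Mrpl17. Mrps15 had 56.9, 54.6 and 53.1 CPM in Satb1 cKO, against 56.6, 51.6 and 56.0 CPM in control, and Mrpl17 had 64.9, 63.8 and 67.0 CPM in Satb1 cKO, against 69.95, 64.4 and 61.7 CPM in control. Their log2 fold changes were 0.0023, 0.0026 and -0.0053 (SE 0.0501, 0.0555 and 0.0559), and the groups overlapped in each. Mrps12, encoding the protein of the decoding centre, had 34.3, 35.1 and 34.4 CPM in Satb1 cKO, against 32.3, 32.0 and 31.7 CPM in control, an example of a member whose groups did not overlap and which did not pass the test (0.11, SE 0.0563, adjusted p = 0.134). Of the 77 members, 30 lay higher and 5 lower in Satb1 cKO without overlap, against 27% and 26.5% of all genes. Among the 60 members with less than 10% of their exon bases in other genes, 13 rose (21.7%) and 2 fell (3.33%).

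RefSeq promoters (250 bases before to 50 after the start, GRCm38.p6) matched 69 of 78 members by symbol. They were searched on both strands for 5 motifs, and no matches of different motifs overlapped. The ETS motif CCGGAAG, bound by GABP, a regulator of nuclear genes for mitochondrial proteins, was in 26 of 69 member promoters (37.7%), 21.4% of those of genes tested and 9.93% of all in the table. The YY1 motif AAGATGGCG was in 8 (11.6%), against 3.8% of genes tested and 1.64% of all. The NRF1 motif was in 3 (4.35%, against 2.49% and 1.07%), the E-box CACGTG, bound by MYC, in 5 (7.25%, against 11.8% and 8.09%) and the CCAAT box CCAAT in 27 (39.1%, against 42.9% and 41.1%). The ETS motif was in 5 of 16 promoters of members that rose and in 19 of 50 of those not called. A match is a description and not a binding site. The 250 bases before the start are shown for 3 members, 5′ to 3′ on the gene's strand, with motif letters in capitals. They are 2 of the 7 members that rose, and the 1 that fell, in all 15 alternative fits. Mrpl37 is on the minus strand (chr4:107066867-107067116), Mrps10 on the plus strand (chr17:47368947-47369196) and Mrpl45 on the plus strand (chr11:97315466-97315715).
Mrpl37: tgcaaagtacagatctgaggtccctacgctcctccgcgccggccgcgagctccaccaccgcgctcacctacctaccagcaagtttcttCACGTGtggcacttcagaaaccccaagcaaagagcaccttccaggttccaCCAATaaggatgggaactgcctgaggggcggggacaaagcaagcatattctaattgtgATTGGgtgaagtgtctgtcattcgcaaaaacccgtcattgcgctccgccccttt
Mrps10: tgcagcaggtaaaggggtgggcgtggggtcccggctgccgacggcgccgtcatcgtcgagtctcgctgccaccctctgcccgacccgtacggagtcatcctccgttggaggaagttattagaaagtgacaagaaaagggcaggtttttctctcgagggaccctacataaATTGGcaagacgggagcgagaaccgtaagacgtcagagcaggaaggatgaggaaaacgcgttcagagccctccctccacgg
Mrpl45: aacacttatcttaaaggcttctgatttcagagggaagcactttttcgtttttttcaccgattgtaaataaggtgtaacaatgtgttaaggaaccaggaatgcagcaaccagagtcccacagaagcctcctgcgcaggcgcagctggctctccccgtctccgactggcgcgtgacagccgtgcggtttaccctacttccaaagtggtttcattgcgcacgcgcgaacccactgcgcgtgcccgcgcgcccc
Mrpl37 held the E-box and the CCAAT box in both orientations before its start and a YY1 match after it, at base 27. Mrps10 held 1 CCAAT box, and the stretch of Mrpl45 held none of the motifs. These sequences do not stand for the other called members. Of the 7 rises that held, only Mrpl37 and Mrps10 had a match before the start. Mrpl12 and Mrps7 had no match, and those of Mrpl21, Mrps18b and Mrps24 lay after the start. Mrpl18, which fell, had an ETS match at base -240 and a CCAAT box at -110.

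Many members have a neighbour that starts close by on the opposite strand. In GENCODE M21, 33 of 78 members (42.3%) had a protein-coding gene on the opposite strand that starts within 1000 bases of their start. The share was 17.2% among 11267 protein-coding genes tested. Such a neighbour starts either upstream of the member or, as Twnk does in Mrpl43, inside it, and then runs across the member's start. Mrpl46 and Mrps11 are such neighbours of each other. Both had positive estimates (0.11 and 0.15) that did not pass the test. Of 28 other neighbours that were tested, 5 rose and 3 fell (median log2 fold change 0.037), and in 15 of 28 pairs the estimates had the same sign. Over all genes tested, 21.6% were called higher and 20.7% lower. Mrps7 and its neighbour Gga3, a gene of Golgi trafficking, starting 126 bases apart, both rose (0.29 and 0.31, SE 0.0478 and 0.0578). Mrpl51 rose (0.19, SE 0.0589), whereas its neighbour Ncapd2, a condensin subunit of mitotic chromosomes, starting 100 bases away, fell to 81.2 ± 0.503 CPM in Satb1 cKO, against 117 ± 8.46 CPM in control (SD, n = 3 each; -0.52, SE 0.0541). Mrpl18 fell and its neighbour Tcp1, a subunit of the cytosolic chaperonin, rose (0.14, SE 0.0371). Exons of Mrps7 overlap Gga3 and those of Mrpl18 overlap Tcp1. All other annotated genes together cover 11.9% of the exon bases of Mrps7 and 10.1% of those of Mrpl18. Since the strand setting of the counting is not known, reads there cannot be assigned with certainty.

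**Figure D4:**
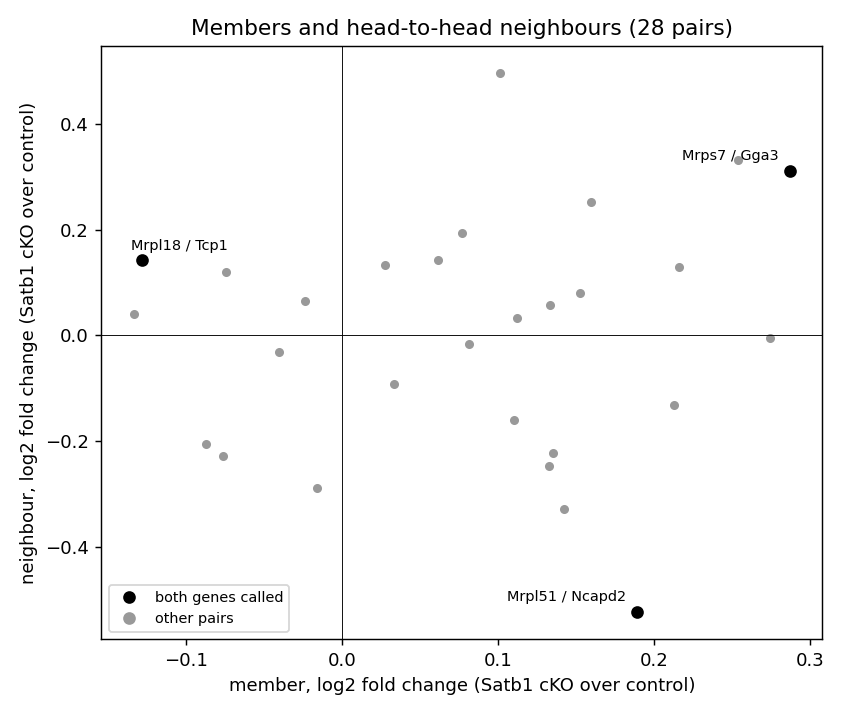
Log2 fold change (Satb1 cKO over control) of a member against that of its head-to-head neighbour for 28 tested pairs. Black points mark the 3 pairs in which both genes were called: Mrps7 with Gga3 in the same direction, Mrpl51 with Ncapd2 and Mrpl18 with Tcp1 in opposite ones.

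Some mitochondrial ribosomal proteins carry other symbols. Of 5 such genes, 3 rose and 0 fell (0 at an unadjusted p under 0.05, and by DESeq2 and limma voom): Gadd45gip1 and Chchd1 (log2 fold change 0.17 and 0.18, SE 0.0506 and 0.0578) and Aurkaip1 (0.13, SE 0.0462). Without Satb1 cKO replicate 2 none of these 3 was called. In 7 of 15 alternative fits, DESeq2 with 1 among them, at most 1 gene of the list was called higher. Of 28 genes for ribosome assembly and rRNA maturation, 5 rose and 1 fell (median 0.053), and without Satb1 cKO replicate 2, 3 rose. Dhx30, an RNA helicase of ribosome assembly, averaged 181 ± 3.55 CPM in Satb1 cKO and 156 ± 8.99 CPM in control (0.21, SE 0.0479). Trub2 and Rpusd4, which act on mitochondrial RNA as pseudouridine synthases, rose by 0.21 and 0.23 on the log2 scale (SE 0.0499 and 0.0625), and Rbfa, a small subunit maturation factor, fell (-0.24, SE 0.081). It is the list's only fall, and in 5 of 15 alternative fits, DESeq2 among them, 0 genes of the list were called lower. Of 16 tested translation factors, 4 rose and 2 fell (median 0.012), and without control replicate 2, 1 rose. In 8 of 15 alternative fits, among them relative log expression scaling, DESeq2 and limma voom, 1 fell. Rises made up 25% of the translation factors and 17.9% of the assembly genes, near the 21.6% of all genes tested. Falls made up 12.5% and 3.57%, against 20.7% of all genes, a difference that was not tested. Tufm, the elongation factor that delivers aminoacyl-tRNA, averaged 198 ± 9.78 CPM in Satb1 cKO and 170 ± 3.24 CPM in control (SD, n = 3 each; 0.22, SE 0.0456), and Letm1, a protein of the inner membrane, rose by 0.15 (SE 0.0425). Guf1, related to a bacterial elongation factor, fell to 29.0 ± 0.91 CPM in Satb1 cKO, against 38.3 ± 1.89 CPM in control (-0.4, SE 0.0628).

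Of 20 genes listed for the charging of mitochondrial tRNAs, all tested, 1 rose and 6 fell. Their median log2 fold change was -0.042, and by DESeq2 0 rose and 3 fell. Gatb, which is among the falls, Gatc and Qrsl1 encode subunits of an amidotransferase that acts on charged tRNA, not synthetases. Ears2 and Tars2, the glutamyl- and threonyl-tRNA synthetases, fell by 0.35 and 0.15 on the log2 scale (SE 0.0867 and 0.0431). Of 22 genes for mitochondrial DNA replication and transcription, 4 rose and 7 fell (median -0.077), and without control replicate 2, 2 rose. Grsf1, a protein of mitochondrial RNA granules, and Dna2, a nuclease and helicase, fell (-0.31 and -0.57, SE 0.0468 and 0.0919), whereas Twnk, the helicase of mitochondrial DNA, rose (0.33, SE 0.0646). Among 11 tested regulators of mitochondrial biogenesis, 4 rose and 2 fell (median 0.0099). Myc, a driver of growth in activated T cells, averaged 632 ± 11.3 CPM in Satb1 cKO and 480 ± 40.3 CPM in control (0.4, SE 0.0532). Esrra, a nuclear receptor that controls respiratory genes, and Gabpb1, a subunit of GABP, rose by 0.45 and 0.28 (SE 0.0612 and 0.0472). Of 33 tested genes for protein import, 14 rose and 1 fell (median 0.11). Those of smallest p, all of which rose, were the chaperone Timm13 (0.5, SE 0.0559), the inner membrane translocase subunit Timm17a (0.46, SE 0.0566) and the matrix co-chaperonin Hspe1 (0.35, SE 0.0522). Over all genes tested, 21.6% rose and 20.7% fell. The shares were 5% and 30% for tRNA charging and 18.2% and 31.8% for mitochondrial DNA. They were 36.4% and 18.2% for the regulators and 42.4% and 3.03% for import. These differences from all genes were not tested.

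The mitochondrial ribosome is built on rRNAs and translates mRNAs of the mitochondrial genome. Of the 13 mRNAs encoded by mitochondrial DNA, 0 rose and 7 fell (median log2 fold change -0.15; 0 rose also by DESeq2 and limma voom, 1 at an unadjusted p under 0.05, and 1 in 3 of the alternative fits). Their summed level was 11240 to 13200 CPM in Satb1 cKO, against 14650 to 15210 CPM in control, without overlap. In Satb1 cKO the 7 that fell averaged 114 CPM (mt-Nd6) or more. The 6 not called averaged only 0.597 (mt-Nd4l) to 11.2 CPM (mt-Co3) there, so the missing calls and the list's median say little about them. The 3 of smallest p were subunits of respiratory complex I: mt-Nd6 at 114 ± 5.58 CPM in Satb1 cKO and 159 ± 5.16 CPM in control (-0.48, SE 0.0479), mt-Nd5 at 1085 ± 102 CPM in Satb1 cKO and 1597 ± 47.7 CPM in control (-0.56, SE 0.0567), and mt-Nd2 at 990 ± 104 CPM in Satb1 cKO and 1311 ± 7.11 CPM in control (-0.41, SE 0.0594; SD, n = 3 each). The rRNA of the small subunit, mt-Rnr1, had 237, 243 and 273 CPM in Satb1 cKO, against 130, 136 and 129 CPM in control. All Satb1 cKO libraries lay far above the controls (0.93, SE 0.0558, adjusted p = 3.02e-07). The rRNA of the large subunit, mt-Rnr2, had 355, 436 and 432 CPM in Satb1 cKO, against 392, 380 and 395 CPM in control, and did not pass the test (0.067, SE 0.0669, adjusted p = 0.45), but without Satb1 cKO replicate 1 both rRNAs were called higher. The labels do not say how rRNA was removed or messenger RNA enriched, and reads that align in several places are not counted, so these levels do not measure the amount of rRNA per cell.

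**Figure D5:**
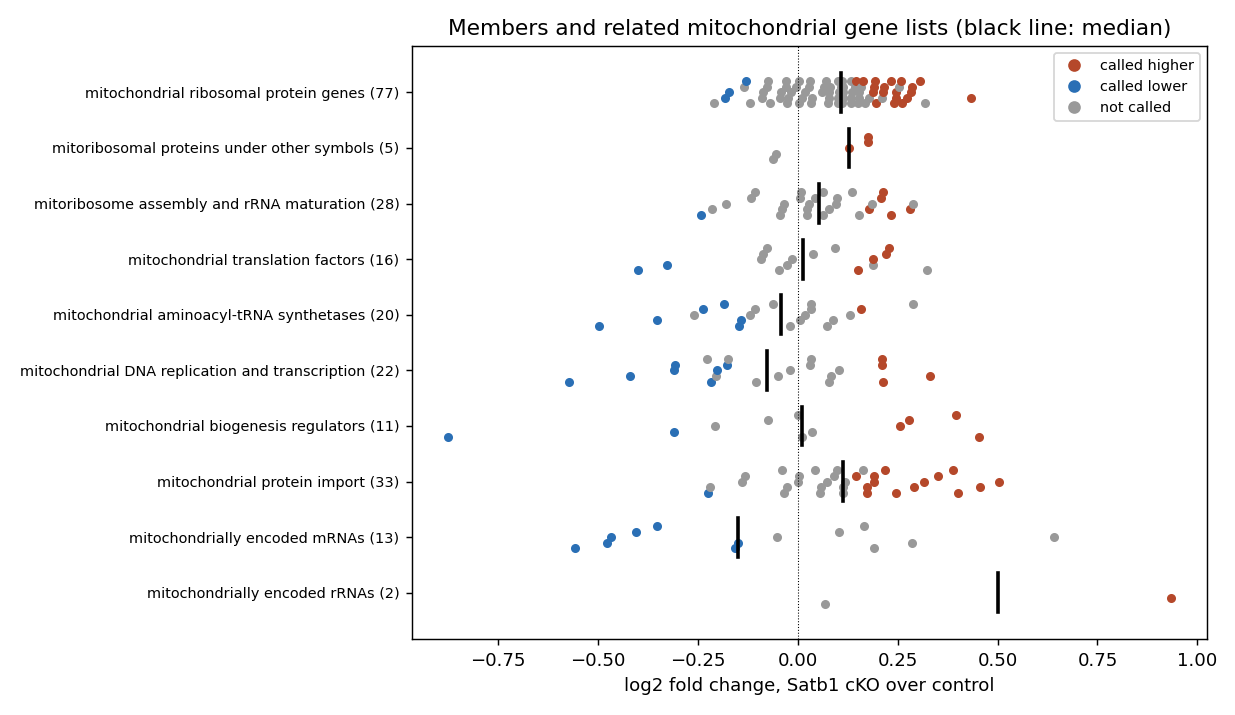
Log2 fold change (Satb1 cKO over control) of each tested gene in the member set (top) and in 9 related lists, with the number of genes in brackets; the black line is the list's median. Member points lie close around 0.11, mitochondrially encoded mRNAs have 7 points called lower and 0 called higher, and mt-Rnr1 stands alone at 0.93.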

How the data were processed

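Expression was measured by RNA sequencing in 3 Satb1 cKO and 3 control libraries, grouped by sample title. The authors deposited raw counts, whole numbers of reads per gene without normalization, 1 table per library with 55401 genes and 5 summary lines that were left out. The submitters' processing notes name STAR 2.7.3a, HTSeq 0.12.4 and the mm10 build; neither annotation release nor strandedness is given in the sources used here. Identifiers matched GENCODE M21 for 55141 genes.

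Counts were fitted with edgeR 4.0.16 in R 4.3.3 (filterByExpr, TMM, glmQLFit and glmQLFTest, group as only term), with Benjamini-Hochberg adjustment over 13364 genes and calls at an adjusted p under 0.05. Levels per kilobase use the union of annotated exons. The alternatives used DESeq2 1.42.0, limma 3.58.1 (voom), other scalings and filters. The fit was tested on simulated data: false calls stayed near the nominal share when dispersions followed the fitted trend and exceeded it when each gene kept its own estimated dispersion, so calls close to the threshold are less certain than their adjusted p. Replicate pairs within groups had log2 CPM correlations of 0.992 to 0.993 and differed by more than sampling noise.

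Values by library are given for Satb1, the 10 called members of largest rise (mean of at least 1 CPM), the called falls, the 3 of highest level per length, the 3 nearest to no change and 3 members whose symbol and subunit differ, with up to 3 called genes of smallest p from each related list; 1 gene that this rule names is not reported here. Mrpl37, Mrpl52, Mrpl21, Mrpl19, Mrps2, Mrps12, Mrps18c, Mrps21, Mrps34, Mrpl33, Mrpl43, the other called members named, Rbfa, Cd4, mt-Rnr2 and the neighbouring genes were added after their values were seen. So were mt-Co3, mt-Nd4l, Gatb, Gatc and Qrsl1. Members and lists were chosen with earlier results of these data known.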

Additional observations from a re-analysis of the deposited data

How the results depend on the processing

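Between 17 and 20 members were called higher and 2 or 3 lower under other scalings, filters, limma voom and without receptor, globin and mitochondrially encoded genes; DESeq2 called 16 and 2. No paired structure was seen: deviations of libraries with the same number correlated at 0.021, -0.013 and 0.028, and a fit with the replicate number as a block called 21 higher and 2 lower. Leaving out 1 library gave 8 to 21 members higher and 1 to 3 lower; without control replicate 3, 8 rose, and without Satb1 cKO replicate 1, 1 fell. The median log2 fold change of the members lay between 0.071 and 0.12 in these fits, lowest without Satb1 cKO replicate 1. At an adjusted p under 0.01, 7 members were higher and 0 lower, and against a 1.2-fold change 0 and 0. 7 of the 19 rises and 1 of the 3 falls held in all 15 alternative fits. Satb1 had log2 fold changes of -0.79 to -0.6. The cause of these shifts was not tested. Only 3 libraries a group limit the precision of these differences, most of which are a few times their standard error or less.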
